A study of Mus musculus with 7 samples.

Results

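The genes described here encode the secreted and membrane-bound proteases that cut the extracellular matrix, the inhibitors that hold them in check, and the oxidases that crosslink what remains. They were chosen by a rule on names that uses no measured value, as every array gene called *Mmp*, *Timp*, *Adamts* or *Loxl* followed by a number, together with *Lox*. Earlier results of these data were known when the rule was set. The rule found 51 genes with 74 probes, out of 35715 named genes and 55681 probes on the array, and comprised 23 matrix metalloproteinases (MMP), 19 ADAMTS proteases, 4 tissue inhibitors of metalloproteinases (TIMP) and 5 lysyl oxidases (LOX). RNA came from untreated whole liver of C57BL/6J mice at the age of 4 weeks, with 1 array per animal and no pooling. All animals carried floxed *Rbpj* alleles on both chromosomes. The *Rbpj*-/- group consisted of 3 *AlfpCre*+ mice, whose livers the labels describe as cholestatic, and the *Rbpj*+/+ group of 4 *AlfpCre*- mice. *AlfpCre* acts in the epithelial lineage of the liver from before birth, so that hepatocytes and bile duct cells lose the gene while blood, vessel and stellate cells are not targeted. The comparison asked how the livers differ when *Rbpj*, which encodes the DNA-binding partner of the Notch receptors, is deleted in that lineage.

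MMPs cut collagens, gelatin, elastin and many non-matrix proteins, and most are made as inactive precursors that other proteases open. TIMPs bind the active site of these enzymes, with *Timp3* also acting on several ADAMTS and ADAM proteases. ADAMTS proteases process procollagens, cleave proteoglycans such as versican, or trim von Willebrand factor, and lysyl oxidases form the crosslinks that stiffen collagen and elastin. In the liver, much of this machinery is made by stellate cells, portal fibroblasts and macrophages rather than by hepatocytes, and both matrix formation and its removal are at work during scarring.

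Values are log2 intensities relative to the 75th percentile of the same array, so that 0 means equal to that percentile, and they are compared between animals within 1 probe only. The dimmest probe that counted as well above background lay between −3.91 and −3.14 on this scale, depending on the array. Probes well above background made up 41.1% to 64.9% of all probes per array. The dim probes were brighter on *Rbpj*+/+ replicate 2 and *Rbpj*-/- replicate 1, with median intensities of 18.7 and 29.6 against 4.99 to 7.75 on the other 5 arrays. All arrays were on 1 slide, with the *Rbpj*+/+ arrays in its row 1 and the *Rbpj*-/- arrays in its row 2, so slide row and genotype cannot be told apart. As a check of the labels, the brightest *Rbpj* probe gave 0.97, 0.29, 0.33 and 0.81 in *Rbpj*+/+ liver and −0.35, −0.78 and −0.48 in *Rbpj*-/- liver, and the difference of −1.13 (SE 0.24) passed the test (adjusted p = 0.0115). Whole liver holds cells that keep *Rbpj*, and fewer cells of a type cannot be told apart from less RNA per cell.

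To be tested, a probe had to be well above background in every animal of the *Rbpj*+/+ or of the *Rbpj*-/- group. This held for 31 of the 74 probes and for 25 of the 51 genes, that is for 49.0% of these genes and 52.6% of all array genes. The remaining 26 genes were too dim to be compared, and 8 of them had no probe above background on any array. Of the 25 tested genes, 11 passed as higher in *Rbpj*-/- liver and 3 as lower (limma, adjusted p under 0.1), and 11 did not pass. Across all 18771 tested genes, 34.2% passed, 14.6% as higher and 19.6% as lower. Of the 25 differences, 18 were positive, against 42.2% of those of all tested genes. By probe, 18 of 31 passed, against 33.6% of all tested probes. The median difference was 0.53 for the 25 genes and −0.13 for all tested genes. No overlap between the genotypes was seen for 15 of the 25, of which 12 were higher and 3 lower in *Rbpj*-/- liver, while 36.5% of all tested genes did not overlap. Without *Rbpj*+/+ replicate 2 and *Rbpj*-/- replicate 1, 9 genes passed as higher and 3 as lower. A gene that passed the detection step only through the genotype in which it was bright was bound to differ, and with detection required in every animal, 7 genes passed as higher and 2 as lower. That requirement left *Timp1*, *Mmp8*, *Mmp27*, *Adamts15*, *Adamts4* and the lower *Adamts13* untested, while *Adamts7* newly passed as higher (adjusted p = 0.0899). The share of all genes passing was counted neither under that requirement nor without *Rbpj*+/+ replicate 2 and *Rbpj*-/- replicate 1. Normexp background correction, which shrinks the differences of dim probes, left *Mmp2* at 0.38, *Mmp14* at 0.55, *Mmp23* at 0.39, *Adamts13* at −0.78, *Loxl4* at −0.80 and *Loxl1* at 0.46, all still past the threshold.

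**Figure D1:**
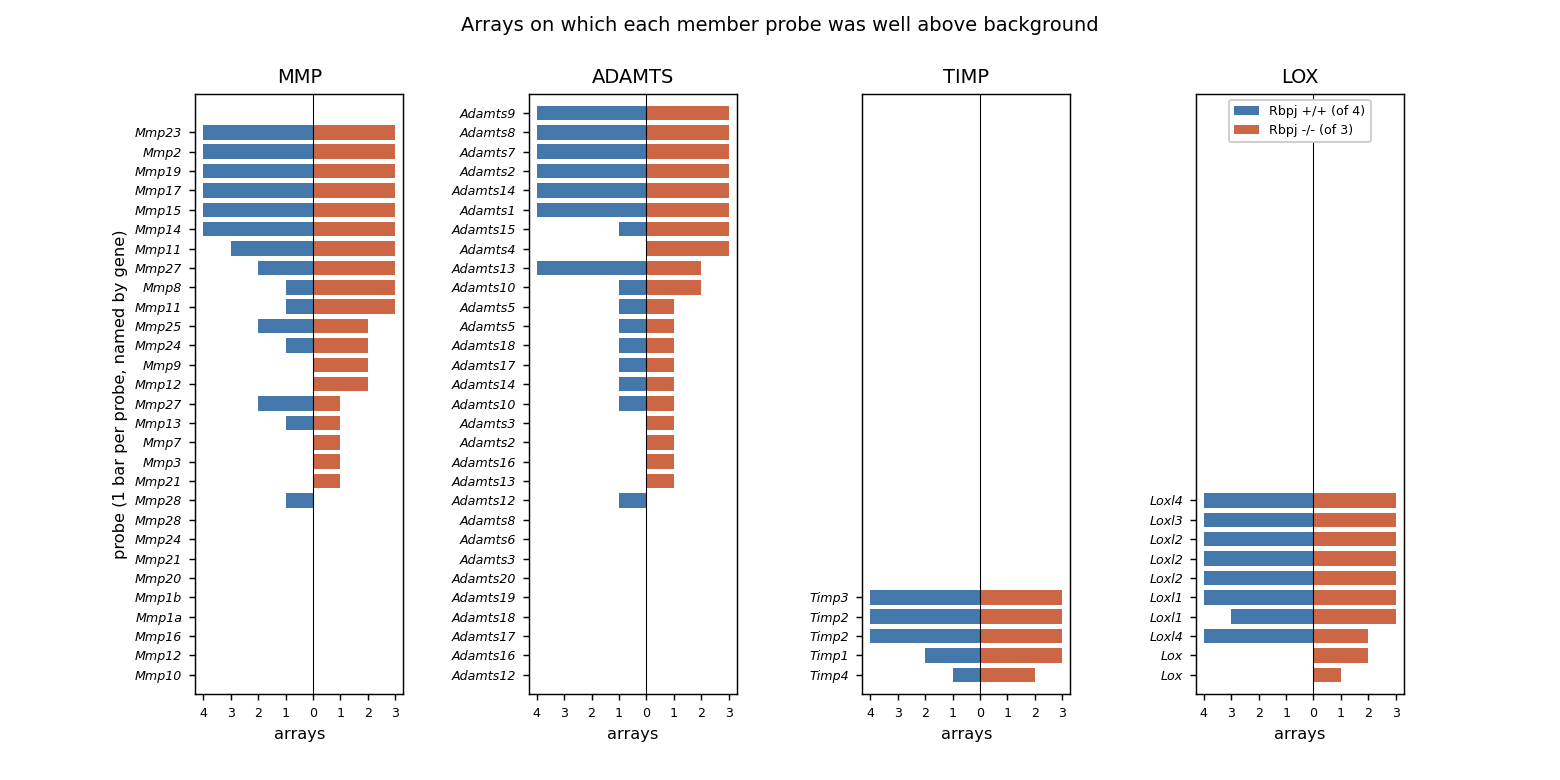
Number of arrays on which each of the 74 probes was well above background, to the left for the 4 Rbpj+/+ arrays and to the right for the 3 Rbpj-/- arrays, with 1 bar pair per probe and 1 panel per family. Of these probes, 21 were detected on all 7 arrays and 18 on none, and Adamts4 was seen on all 3 Rbpj-/- arrays and on no Rbpj+/+ array.

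The plot of detection shows how far each family could be read in these livers. Lysyl oxidases and TIMPs were mostly measurable, with 4 of 5 and 3 of 4 genes tested. Only 9 of 23 MMP genes and 9 of 19 ADAMTS genes were tested. By array, the number of these probes well above background was 30, 41, 24 and 26 in *Rbpj*+/+ liver and 54, 36 and 31 in *Rbpj*-/- liver. The highest count in each genotype belonged to the array with brighter dim probes. Among the 43 untested probes, 14 were above background on *Rbpj*+/+ replicate 2 and 23 on *Rbpj*-/- replicate 1, against 0 to 6 on the other arrays, so most of their detections came from those 2 arrays.

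The untested MMP genes fell largely into 1 chromosomal cluster. On chromosome 9, between 7282762 and 7697700 (mm9, 415 kb), the probes of 10 *Mmp* genes lie side by side, and they cover collagenases, stromelysins, the macrophage elastase *Mmp12* and the matrilysin *Mmp7*. In this cluster 2 of 10 genes were tested, *Mmp8* and *Mmp27*, compared with 7 of the 13 *Mmp* genes elsewhere. Promoters in the cluster are textbook examples of inducible genes, with a binding sequence of the AP-1 factors Fos and Jun close to a TATA box. RefSeq promoters of GRCm38.p6, from 250 bases before to 50 after the start, were matched for 33 of the 51 genes by 36 windows. The AP-1 letters TGAGTCA, searched on both strands, occurred in 7 of these 36 windows (19.4%) and in 5.20% of all 32851 promoters. All 7 lay in the cluster, which has 12 windows, and none of the 24 windows of the other genes held them. The TATA letters TATAAA, also searched on both strands, occurred in 9 of the 12 cluster windows and in 13.6% of all promoters. The 120 bases before the start are shown for the 7 genes with the AP-1 letters, followed by the 2 tested genes of the cluster, which lack them. Capitals mark TGAGTCA or its reverse complement and TATAAA, and each sequence is read 5′ to 3′ on the strand of its gene.
Mmp13, chr9:7272394-7272513 (+ strand): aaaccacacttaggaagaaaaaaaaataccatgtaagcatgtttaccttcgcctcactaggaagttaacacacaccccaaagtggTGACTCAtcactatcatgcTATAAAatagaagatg
Mmp12, chr9:7347254-7347373 (+ strand): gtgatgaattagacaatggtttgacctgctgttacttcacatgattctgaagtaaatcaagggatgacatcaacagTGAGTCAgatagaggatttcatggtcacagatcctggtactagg
Mmp1b, chr9:7388027-7388146 (- strand): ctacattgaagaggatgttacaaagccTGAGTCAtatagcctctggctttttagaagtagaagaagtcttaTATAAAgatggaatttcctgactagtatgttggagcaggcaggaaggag
Mmp3, chr9:7445702-7445821 (+ strand): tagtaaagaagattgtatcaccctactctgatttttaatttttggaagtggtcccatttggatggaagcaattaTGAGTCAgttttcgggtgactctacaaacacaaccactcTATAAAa
Mmp1a, chr9:7464021-7464140 (+ strand): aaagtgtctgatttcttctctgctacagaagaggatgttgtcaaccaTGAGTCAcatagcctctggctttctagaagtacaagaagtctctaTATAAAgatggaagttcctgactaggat
Mmp10, chr9:7502222-7502341 (+ strand): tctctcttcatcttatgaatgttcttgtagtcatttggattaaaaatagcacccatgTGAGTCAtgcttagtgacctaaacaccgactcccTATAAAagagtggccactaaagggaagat
Mmp7, chr9:7691970-7692089 (+ strand): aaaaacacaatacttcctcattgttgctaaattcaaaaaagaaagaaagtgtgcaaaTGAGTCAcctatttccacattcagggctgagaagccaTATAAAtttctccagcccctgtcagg
Mmp8, chr9:7558309-7558428 (+ strand): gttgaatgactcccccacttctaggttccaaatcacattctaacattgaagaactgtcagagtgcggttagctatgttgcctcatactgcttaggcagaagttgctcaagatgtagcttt
Mmp27, chr9:7571276-7571395 (+ strand): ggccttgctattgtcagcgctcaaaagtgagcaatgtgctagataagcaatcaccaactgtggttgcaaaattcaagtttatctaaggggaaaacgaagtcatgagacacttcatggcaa

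None of the 7 genes with the AP-1 letters reached the test in either genotype. *Mmp8* and *Mmp27*, the 2 that did, showed no TGAGTCA in the window, although the window of *Mmp8* held TATAAA on its other strand across the start, where the stretch shown ends. *Mmp20*, the remaining gene of the cluster, also lacked TGAGTCA and was above background on no array. Whether the letters go with detection was not tested. No factor binding was measured, and a match of letters is not a site. The letters GTGGGAA, which RBPJ recognises, occurred in 2 of the 36 windows (5.56%) against 6.38% of all promoters, at *Mmp23* and at a second start of *Mmp7*. Those of the TEAD partners of YAP, GGAATG, were in 2 windows (5.56%) against 14.7%, at *Adamts13* and *Timp1*, both strands being searched each time.

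Among the collagenases, *Mmp8*, the neutrophil collagenase, was higher in *Rbpj*-/- liver. Its probe (chromosome 9, 7568238 to 7568297, mm9) gave −4.69, −2.90, −4.81 and −3.35 in *Rbpj*+/+ liver and −0.79, −2.20 and −2.80 in *Rbpj*-/- liver. The lowest *Rbpj*-/- value stood only just above the highest *Rbpj*+/+ value. The difference was 2.01 (SE 0.59, adjusted p = 0.0399), with the probe well above background on 1 of 4 *Rbpj*+/+ and all 3 *Rbpj*-/- arrays. It no longer passed without *Rbpj*+/+ replicate 3 (1.72, adjusted p = 0.102) or without *Rbpj*-/- replicate 1 (1.44, adjusted p = 0.126), and with normexp background correction it was 0.16 (adjusted p = 0.541). Of 9 neutrophil markers tested, 3 were higher, *S100a8* by 2.62, *S100a9* by 2.46 and *Retnlg* by 3.47, while *Elane* was lower by 0.50 and 5 did not pass. *Retnlg*, well above background on 3 of 4 *Rbpj*+/+ arrays, entered the test through the *Rbpj*-/- arrays, and only 4 of the 9 markers were detected in every animal. The summed level of these markers was 2.67 to 4.67 in *Rbpj*+/+ and 5.09 to 6.17 in *Rbpj*-/- liver, and the part of neutrophils in the *Mmp8* value was not tested. *Mmp13*, the main interstitial collagenase of rodents, could not be compared. It gave −5.77, −1.61, −4.78 and −3.76 against −0.68, −6.04 and −3.83, and was above background only on the arrays with brighter dim probes, 1 per genotype. The other collagenases, *Mmp1a* and *Mmp1b*, were above background on no array.

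The gelatinases differed in how well they could be seen. *Mmp2*, the gelatinase of fibroblasts and stellate cells, gave −1.21, −2.15, −1.52 and −1.17 in *Rbpj*+/+ liver and −0.28, −0.80 and −0.05 in *Rbpj*-/- liver (chromosome 8, 95376840 to 95376899, mm9). Every *Rbpj*-/- liver stood above every *Rbpj*+/+ liver, by 1.14 on average (SE 0.29, 2.20-fold, adjusted p = 0.0256). Quantile normalization left the difference at 1.37 with an adjusted p of 0.117. *Mmp9*, the gelatinase of neutrophils and macrophages, was read by 10 spots per array and was near background throughout. Its values were −5.87, −5.36, −4.94 and −5.12 in *Rbpj*+/+ and −3.13, −4.76 and −3.19 in *Rbpj*-/- liver. It was above background on no *Rbpj*+/+ array and on 2 of 3 *Rbpj*-/- arrays, which is not enough for the test. *Mmp12*, the macrophage elastase, was detected on as many arrays at 1 of its 2 probes, with −5.98, −4.70, −3.93 and −3.48 against −2.87, −2.47 and −4.50, but its genotypes overlapped and its other probe was detected nowhere. Of 8 macrophage markers, 6 were higher and 1 lower, against 14.6% and 19.6% of all tested genes. The lower one was *Itgam*, with a difference of −1.54 (adjusted p = 0.00969). The summed level of the macrophage markers was 6.28 to 6.65 in *Rbpj*+/+ and 7.41 to 7.70 in *Rbpj*-/- liver. Their part in these values was not tested.

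The membrane-bound MMPs were the best measured subgroup. *Mmp14*, which opens the *Mmp2* precursor at the cell surface, gave −0.69, −0.58, −0.52 and −1.35 in *Rbpj*+/+ liver and 0.47, 0.34 and −0.13 in *Rbpj*-/- liver (chromosome 14, 55058775 to 55058834, mm9). The groups did not overlap and the difference was 1.02 (SE 0.26, 2.02-fold, adjusted p = 0.025). *Mmp23*, an unusual MMP anchored by its propeptide, rose by 1.28 (SE 0.24, adjusted p = 0.00787). Its values were −2.01, −1.92, −1.77 and −2.18 against −0.25, −0.71 and −1.12, again without overlap, and it passed under all 19 alternatives tried. *Mmp17*, which is tethered by a lipid anchor, was the only MMP lower in *Rbpj*-/- liver, with −0.84, −0.55, −0.49 and −0.70 against −0.98, −1.32 and −1.07. That difference was small at −0.48 (SE 0.19, adjusted p = 0.0948), and leaving out any animal except *Rbpj*+/+ replicate 1 raised the adjusted p to between 0.112 and 0.284. *Mmp15* did not pass (0.33, 95% interval −0.07 to 0.74, adjusted p = 0.202), although its 3 *Rbpj*-/- values, 0.88, 0.89 and 1.15, lay above the *Rbpj*+/+ values of 0.56 to 0.79. The other membrane-bound members, *Mmp16*, *Mmp24* and *Mmp25*, were too dim to be tested.

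Of the remaining MMPs, *Mmp27*, a little-studied member of the chromosome 9 cluster, was higher at 1 of its 2 probes. It gave −2.63, −2.44, −4.73 and −4.98 in *Rbpj*+/+ liver, where 2 of 4 arrays were above background, and −1.18, −1.60 and −1.28 in *Rbpj*-/- liver. The *Rbpj*+/+ animals were split into a brighter and a dimmer pair, all below the *Rbpj*-/- animals, and the difference was 2.34 (SE 0.62, adjusted p = 0.0286). With normexp background correction it fell to 0.23 (adjusted p = 0.197). *Mmp11*, stromelysin-3, had a pair of probes that disagreed on the test. Its brighter probe differed by 0.49 (95% interval −0.14 to 1.12, adjusted p = 0.227) and the dimmer one by 1.44 (adjusted p = 0.0435, above background on 1 of 4 *Rbpj*+/+ arrays). The latter lost its call without *Rbpj*-/- replicate 1 (adjusted p = 0.135) or 3 (adjusted p = 0.11), and both probes fell slightly below 0 with normexp, to −0.14 and −0.04. *Mmp19*, a broadly expressed basement membrane protease, differed by −0.34 (95% interval −0.90 to 0.22, adjusted p = 0.342). The stromelysin *Mmp3* and the matrilysin *Mmp7* were above background on *Rbpj*-/- replicate 1 alone.

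**Figure D2:**
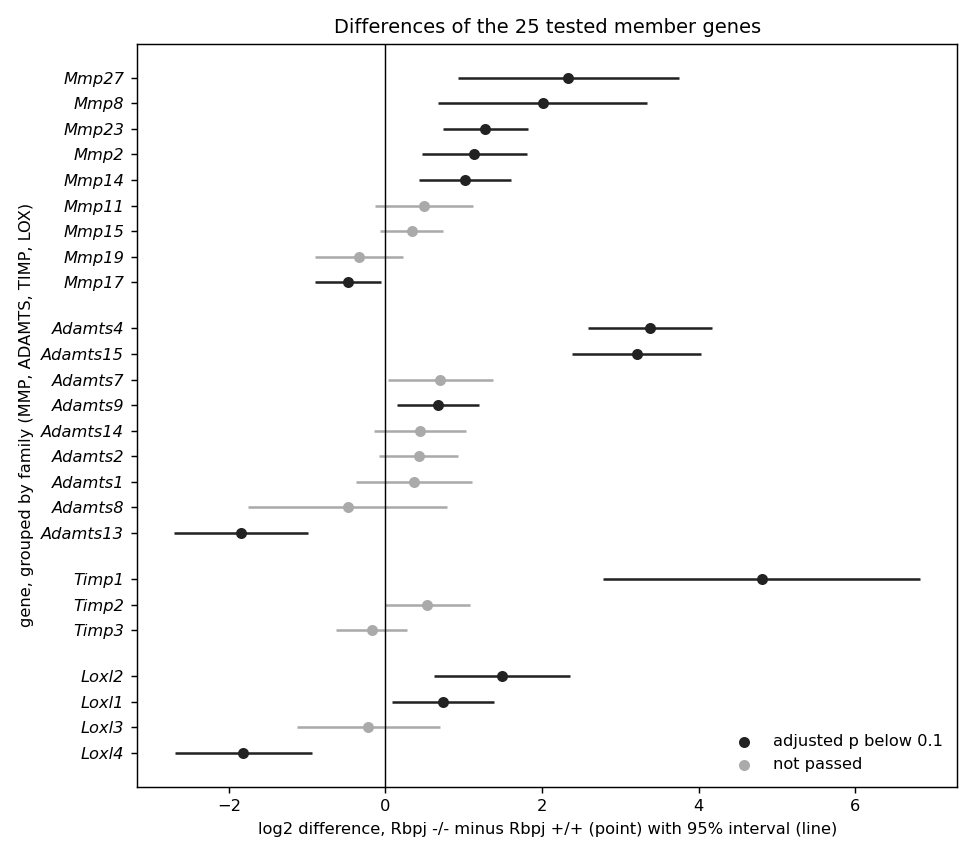
Log2 difference between Rbpj-/- and Rbpj+/+ liver for the 25 tested genes, with the 95% interval from limma, grouped by family. Black points passed at an adjusted p below 0.1, 11 to the right of 0 and 3 to the left, and Timp1 had the largest difference at 4.81. The point of Adamts4 rests on Rbpj+/+ values below background.

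The largest difference of all 25 genes was that of an inhibitor. *Timp1*, a secreted inhibitor that stellate cells and macrophages make in injured liver, gave −2.04, −3.27, −4.73 and −0.92 in *Rbpj*+/+ liver and 3.33, 2.26 and 0.62 in *Rbpj*-/- liver (chromosome X, 20451802 to 20451861, mm9). Both groups spread widely, but the lowest *Rbpj*-/- animal was still clearly above the highest *Rbpj*+/+ animal. The mean rose from −2.74 ± 1.64 (SD, n = 4) to 2.07 ± 1.36 (SD, n = 3), a difference of 4.81 (SE 0.89, 95% interval 2.78 to 6.83, adjusted p = 0.00764, limma). Only 2 of 4 *Rbpj*+/+ arrays measured it well above background, so the size of the difference rests in part on values near background. It passed in every one of the 18 alternatives in which it was tested, with differences from 2.54 (normexp) to 5.53. Having entered the test only through the *Rbpj*-/- arrays, *Timp1* could not be tested with detection required in every animal. The stretch before its start held none of the 4 letter groups searched, since the TEAD letters lay further upstream, and is shown because it stands in front of the gene with the largest difference.
Timp1, chrX:20870046-20870165 (+ strand): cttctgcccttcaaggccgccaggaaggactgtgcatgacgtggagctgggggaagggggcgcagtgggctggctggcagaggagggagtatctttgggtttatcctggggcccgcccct

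The other inhibitors moved less. *Timp2*, which binds *Mmp14* and helps it to open *Mmp2*, was bright in all animals at 1 probe, with 3.38, 2.94, 3.83 and 3.51 against 3.92, 4.14 and 3.79. That probe overlapped between the groups and did not pass (0.53, 95% interval −0.01 to 1.08, adjusted p = 0.135). Its second probe gave −1.13, −1.13, −0.94 and −0.73 against 0.95, 0.16 and 0.03, without overlap, and passed with a difference of 1.36 (SE 0.26, adjusted p = 0.00812). The first probe passed as well under 4 of the alternatives (normexp, quantile normalization, the percentile over detected probes and the series matrix), at differences between 0.61 and 0.77. *Timp3*, the inhibitor that stays bound to the matrix, gave 1.45, 1.89, 1.97 and 1.78 against 1.42, 1.64 and 1.72. Its difference was −0.18 (95% interval −0.63 to 0.28, adjusted p = 0.545). *Timp4* was above background on 1 of 4 and 2 of 3 arrays and was not tested.

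**Figure D3:**
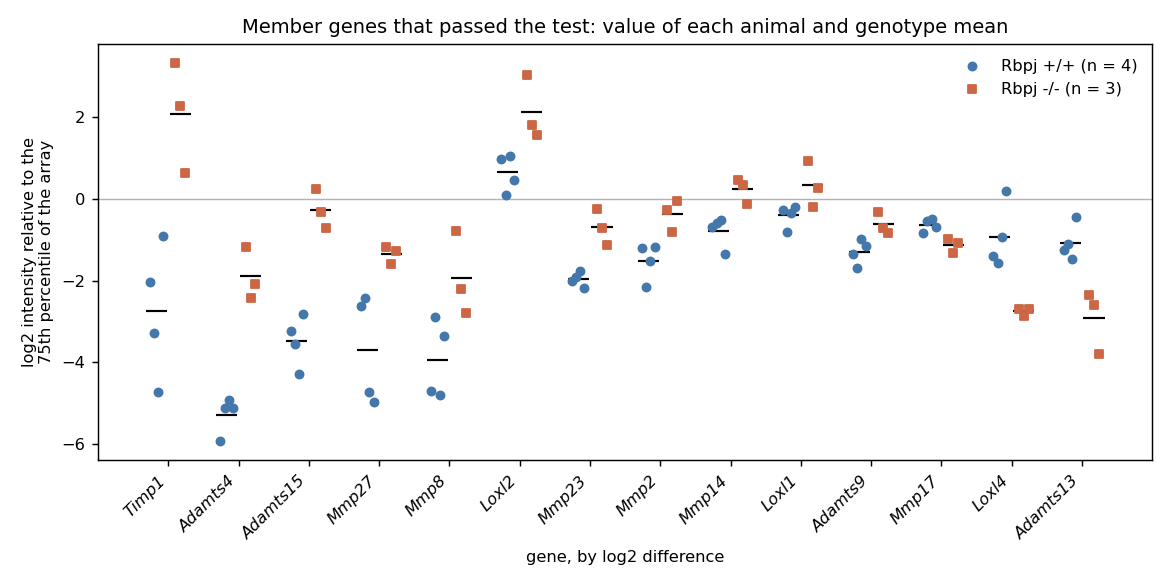
Value of each animal for the 14 genes that passed, as log2 intensity relative to the 75th percentile of the array, with circles for the 4 Rbpj+/+ and squares for the 3 Rbpj-/- animals and bars for the group means. Loxl1 is the only one of the 14 in which the groups overlap. The 4 Rbpj+/+ values of Adamts4 were below background.

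Among the ADAMTS proteases, 3 of the enzymes that cleave proteoglycans were higher in *Rbpj*-/- liver, and *Adamts15* and *Adamts4* entered the test only through the *Rbpj*-/- arrays. *Adamts15* gave −3.22, −3.56, −4.29 and −2.83 in *Rbpj*+/+ liver and 0.24, −0.32 and −0.71 in *Rbpj*-/- liver (chromosome 9, 30707033 to 30707092, mm9). The groups did not overlap, with a difference of 3.21 (SE 0.36, 95% interval 2.39 to 4.03, adjusted p = 0.00115), whose size rests on *Rbpj*+/+ values of which only 1 of 4 was well above background. It passed in all 18 alternatives in which it was tested, with 0.82 as the smallest difference under normexp. *Adamts4*, also known as aggrecanase-1, was not well above background in any *Rbpj*+/+ liver, at −5.93, −5.13, −4.93 and −5.11, and was measured in all *Rbpj*-/- livers, at −1.17, −2.43 and −2.09 (chromosome 1, 173189952 to 173190011, mm9). Set against the lowest signal that counted as above background on each *Rbpj*+/+ array, it was at least 2.80-fold higher, a bound that was not tested. The test was of the difference of 3.38 (adjusted p = 0.000791), which rests on *Rbpj*+/+ values below background. With normexp the difference was 0.27 (adjusted p = 0.226). *Adamts9*, another versican-cleaving enzyme, gave −1.34, −1.70, −0.99 and −1.15 against −0.33, −0.70 and −0.84. Its rise of 0.67 (SE 0.23, adjusted p = 0.0666) did not overlap, but left the threshold without *Rbpj*+/+ replicate 1 (adjusted p = 0.116) or 4 (0.103), without *Rbpj*-/- replicate 1 (0.205) or 2 (0.144), and was 0.24 with normexp. *Adamts1* and *Adamts8* did not pass, with differences of 0.36 (95% interval −0.38 to 1.10) and −0.48 (−1.76 to 0.79). For *Adamts8*, leaving out *Rbpj*-/- replicate 1, at −0.90 against −3.37 and −3.34 in the other 2, gave −1.30 with an adjusted p of 0.0254. *Adamts5*, the other main aggrecanase, was above background on 1 array of each genotype at both of its probes, and was not tested.

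The procollagen N-proteinases *Adamts2* and *Adamts14*, which trim the amino end of fibrillar procollagens, did not pass. *Adamts2* gave 2.35, 2.35, 2.63 and 2.80 against 3.32, 2.74 and 2.82, a difference of 0.42 (95% interval −0.08 to 0.93, adjusted p = 0.192), and *Adamts14* differed by 0.45 (−0.14 to 1.03, adjusted p = 0.24). With normexp *Adamts2* passed, at 0.62 (adjusted p = 0.0235). *Adamts3*, the third member of that subgroup, was too dim to be tested. *Adamts7*, a protease of cartilage and vessel wall matrix, gave −0.23, 0.29, 0.43 and −0.78 against 0.53, 0.59 and 0.77. Its groups did not overlap, yet the difference of 0.70 (95% interval 0.03 to 1.38) had an adjusted p of 0.117, and it passed under 6 of 19 alternatives.

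One ADAMTS gene was lower. *Adamts13*, the protease that trims von Willebrand factor and that the liver makes mainly in stellate cells, gave −1.26, −1.09, −1.48 and −0.45 in *Rbpj*+/+ liver and −2.34, −2.61 and −3.79 in *Rbpj*-/- liver (chromosome 2, 26852318 to 26852377, mm9). All *Rbpj*-/- animals were below all *Rbpj*+/+ animals, by 1.84 on average (difference −1.84, SE 0.38, 3.59-fold, adjusted p = 0.011), and 2 of the 3 *Rbpj*-/- arrays were well above background. Its substrate *Vwf*, which is made by endothelial cells, moved the other way, from 1.92 ± 0.46 (SD, n = 4) to 3.88 ± 0.23 (SD, n = 3). Of 9 stellate cell and fibroblast markers, 6 were higher and none lower, against 14.6% higher and 19.6% lower among all tested genes. *Lrat* was higher by 0.47 (adjusted p = 0.0996), and *Reln* and *Des* did not pass. The summed level of the 9 markers was 6.40 to 7.30 in *Rbpj*+/+ and 7.41 to 7.49 in *Rbpj*-/- liver. That sum is mostly *Dcn*, at 6.64 ± 0.45 (SD, n = 4) and 7.13 ± 0.09 (SD, n = 3), which did not pass. The part of these cell types in either value was not tested. The second *Adamts13* probe was above background on 1 array and was not tested.

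Among the crosslinkers, *Loxl2* was higher at each of its 3 probes. *Loxl2* encodes a lysyl oxidase that acts on collagen IV and fibrillar collagens. Its brightest probe (chromosome 14, 70095254 to 70095313, mm9) gave 0.97, 0.11, 1.05 and 0.45 in *Rbpj*+/+ liver and 3.04, 1.81 and 1.57 in *Rbpj*-/- liver, a difference of 1.49 (SE 0.38, 2.81-fold, adjusted p = 0.0251). The other probes, upstream of it in the same gene, rose by 1.64 (adjusted p = 0.00382) and 0.79 (adjusted p = 0.0176), and none of the 3 overlapped between the groups. Without both arrays with brighter dim probes, the difference at the brightest probe was 0.86 (adjusted p = 0.0639). *Loxl1*, which is needed for elastic fibres, gave −0.26, −0.81, −0.34 and −0.20 against 0.92, −0.21 and 0.27, so that 1 *Rbpj*-/- animal lay within the *Rbpj*+/+ range. Its difference of 0.73 (SE 0.29, adjusted p = 0.0973) no longer passed under 13 of 19 alternatives, more than for any other of the 14 genes. These included the removal of any animal except *Rbpj*-/- replicate 2, and the lowest values were 0.44 without *Rbpj*-/- replicate 1 and 0.30 without both arrays with brighter dim probes. A dimmer *Loxl1* probe differed by 0.81 with overlapping groups and did not pass (adjusted p = 0.28). *Loxl4* moved the opposite way, with −1.40, −1.56, −0.94 and 0.18 in *Rbpj*+/+ liver and −2.69, −2.86 and −2.69 in *Rbpj*-/- liver (chromosome 19, 42668733 to 42668792, mm9). The 3 *Rbpj*-/- values were nearly equal and all below the *Rbpj*+/+ values, and the difference was −1.82 (SE 0.39, 3.53-fold, adjusted p = 0.0123). A dimmer *Loxl4* probe differed by −0.94 and did not pass (adjusted p = 0.238). *Loxl3* differed by −0.22 (95% interval −1.13 to 0.69, adjusted p = 0.716), and without *Rbpj*-/- replicate 2 by 0.22.

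*Lox* itself, the founding member, could not be compared. At the brighter of its 2 probes, it gave −5.87, −5.27, −4.88 and −3.48 in *Rbpj*+/+ liver, none of them above background, and −2.04, −2.95 and −4.16 in *Rbpj*-/- liver, where 2 of 3 were. The other probe was above background on *Rbpj*-/- replicate 1 alone. The 5 lysyl oxidases thus comprised 2 that were higher, 1 that was lower, 1 that did not pass and 1 below the reach of the array in *Rbpj*+/+ liver.

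Genes that act on the same matrix outside these families were read from 8 further lists, to be set against the 34.2% of all tested genes that passed and their median of −0.13. The plasmin system, which activates MMP precursors and degrades fibrin, had 4 of 7 genes tested, all of which passed, 2 as higher and 2 as lower, with a median difference of 0.51. The activator and the receptor were higher and the liver-made plasma proteins lower. *Plat*, the tissue plasminogen activator, rose by 1.70 (SE 0.35, adjusted p = 0.0116) and *Plaur*, the urokinase receptor, by 3.21 (SE 0.66, adjusted p = 0.0113). Both entered the test through the *Rbpj*-/- arrays, since *Plat* was well above background on 1 and *Plaur* on 2 of 4 *Rbpj*+/+ arrays, and 2 of the 4 tested genes were detected in every animal. Plasminogen itself, *Plg*, was lower by 0.80 and the plasmin inhibitor *Serpinf2* by 0.68 (difference −0.80, adjusted p = 0.0243, and −0.68, adjusted p = 0.0415). Of 8 hepatocyte markers, 5 also passed as lower and none as higher. The other 3 did not pass, *Cps1* at 0.94, *Tat* at 0.52 and *Hnf4a* at −0.32. The summed level of the 8 markers was 11.7 to 12.1 in *Rbpj*+/+ and 11.0 to 11.3 in *Rbpj*-/- liver. Their part in the *Plg* and *Serpinf2* values was not tested.

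Among genes of the matrix that the enzymes act on, RNA was higher for most fibrillar collagens, and no matrix protein was measured. Of 8 collagen and elastic fibre genes, 5 were higher and none lower, with a median of 1.13. The other 3 did not pass, *Col5a2* at 1.0, *Eln* at 0.31 and *Fn1* at −0.13. Collagen I rose at both chains, *Col1a1* by 1.44 (adjusted p = 0.0156) and *Col1a2* by 1.37 (adjusted p = 0.0042), and fibrillin-1, *Fbn1*, by 2.0 (adjusted p = 0.00994). *Fbn1*, well above background on 3 of 4 *Rbpj*+/+ arrays, entered the test through the *Rbpj*-/- arrays. The proteoglycans on which ADAMTS enzymes act had no common direction. *Lum* was higher by 1.97 (adjusted p = 0.00293), *Vcan* lower at −0.86 (adjusted p = 0.0409), and the other 3 tested did not pass, so that the median was 0.23. Collagen processing outside the lysyl oxidases had 5 of 12 genes higher and 2 lower, with a median of 0.35. *Plod2* and *Plod1*, which hydroxylate collagen lysines, moved in opposite directions, by 1.77 (adjusted p = 0.0226) and −1.44 (adjusted p = 0.00324), but *Plod2* entered the test through the *Rbpj*-/- arrays, being detected in 1 of 4 *Rbpj*+/+ livers. *Tgm2*, a transglutaminase that crosslinks matrix proteins, was higher by 1.18 (adjusted p = 0.0184) and the procollagen C-proteinase *Bmp1* was lower, with a difference of −0.78 (adjusted p = 0.0236).

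Among other protease families, 4 of 7 membrane ADAM proteases passed, while cathepsins (2 of 5), other regulators (2 of 7) and ADAMTS-like genes (1 of 3) passed about as often as all tested genes. Of the 7 membrane ADAM proteases, 3 were higher, *Adam8* by 2.15 (adjusted p = 0.00794), *Adam19* by 1.25 (adjusted p = 0.00427) and *Adam15* by 1.09 (adjusted p = 0.00907), and *Adam17* was lower at −0.95, with a median of 0.40. *Adam8*, well above background on 3 of 4 *Rbpj*+/+ arrays, entered the test through the *Rbpj*-/- arrays. Cathepsins S and K, lysosomal proteases of macrophages and osteoclasts, were higher by 1.87 (*Ctss*, adjusted p = 0.00135) and 1.24 (*Ctsk*, adjusted p = 0.0119), while the other 3 cathepsins did not pass and the median was 0.48. Of 7 other regulators, *Bsg*, a cell surface inducer of MMPs, was higher by 1.02 and the broad protease inhibitor *Pzp* lower at −0.89 (adjusted p = 0.0394 and 0.0147), and the median was −0.54. The membrane-bound MMP inhibitor *Reck* gave −0.56 (adjusted p = 0.151). Among 3 tested ADAMTS-like genes, which lack the protease domain, *Adamtsl5* was higher by 1.56 (adjusted p = 0.0833) although its groups overlapped and 2 of 4 *Rbpj*+/+ arrays were well above background, and the median was 0.05.

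**Figure D4:**
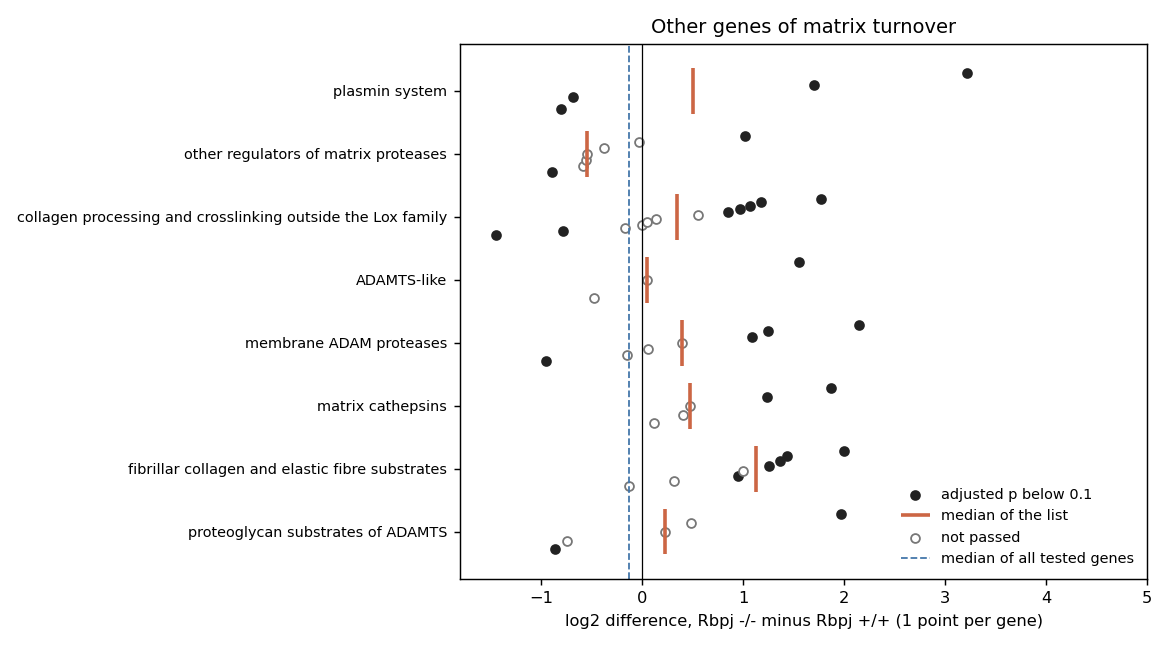
Log2 difference between Rbpj-/- and Rbpj+/+ liver for every tested gene of 8 lists of matrix turnover outside the 4 families, with filled points for an adjusted p below 0.1, a red bar for the median of the list and a dashed line for the median of all tested genes, −0.13. The plasmin system reached from −0.80 (Plg) to 3.21 (Plaur).

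Markers of cells that make or border the matrix moved in part with these genes. The median difference was 1.34 for macrophage, 1.16 for neutrophil, 0.76 for stellate cell and fibroblast, 0.48 for endothelial, −0.10 for cholangiocyte and −0.72 for hepatocyte markers, and *Lum* and *Dcn* stand both on the stellate cell list and among the proteoglycans. Only 4 of 9 tested neutrophil markers were detected in every animal, against 7 of 8 macrophage and 8 of 9 stellate cell and fibroblast markers. The rest of these 3 lists entered the test through the *Rbpj*-/- arrays, which favours positive differences, so the neutrophil median is affected most. Beside the stellate cell, macrophage and neutrophil markers already given, 3 of 7 endothelial markers were higher and 1 lower, with a summed level of 5.78 to 6.33 in *Rbpj*+/+ and 6.57 to 7.19 in *Rbpj*-/- liver. Of 6 tested cholangiocyte markers 2 were higher, *Spp1* and *Sox9*, neither of which is particular to bile ducts, and *Krt7* and *Krt19* did not pass. None of the 6 marker lists was used as a correction, and their part in the differences of the proteases, inhibitors and crosslinkers was not tested.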

How the data were processed

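Expression was measured with Agilent 1-colour arrays in 4 *Rbpj*+/+ and 3 *Rbpj*-/- livers, 1 animal per array. The deposited intensity values are background-subtracted, detrended spot signals that the authors obtained with Agilent Feature Extraction 10.7.3.1, per the file headers, without normalization between arrays. The deposited series matrix holds log2 values that the authors normalized from the same arrays, and was used as an alternative only.

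Control probes were left out, as were spots marked as non-uniform or population outliers (146 probe values). Saturation was not seen. Where a probe had several spots (432 probes), their log2 intensities were averaged, and each array was shifted by its 75th percentile. Detection of a probe meant that at least 0.5 of its spots were positive, significant and well above background, and a test required detection in every animal of either genotype. The fit used limma 3.58.1 (R 4.3.3) on all 24548 tested probes, with Benjamini-Hochberg adjustment over them and a threshold of 0.1. Every adjusted p in the text is from this test or, where an alternative is named, from limma refitted and adjusted under that alternative. The brightest tested probe stands for its gene. Where no array of a genotype was above background, a lower bound of the fold is given. The summed level of a list is the log2 of its summed linear values. The number of arrays limits the precision, and their replicate numbers follow accession order.

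The members, the lists and the alternatives were chosen with earlier results of these data known. All members that passed, the TIMP and LOX families, *Mmp2*, *Mmp8*, *Mmp9*, *Mmp12*, *Mmp13* and *Mmp14* were to be named, with up to 3 genes of each list by size of the difference. The result for 1 gene of these lists is not reported here. Other genes named were chosen after their values were seen. The 19 alternatives were normexp background correction (offset 50), quantile normalization, the percentile taken over the probes that every array detected, dim probes left in, detection required on all 7 arrays, marked spots left in, limma-trend, array weights, the series matrix, the mean of all tested probes of a gene, a threshold of 0.05, each animal left out, and, added after the data were seen, both arrays with brighter dim probes left out. Steps were tested on simulated data. Probe coordinates are those of the array design (mm9), and no annotation of that build was used to place them in exons. Promoters came from RefSeq (GRCm38.p6). Names of *Mmp27* and of 1 probe each of *Adamts3*, *Adamts10* and *Adamts18* are the array's own. Tables and figures were made with Python 3.11.15 (pandas 2.3.3, matplotlib 3.10.9).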

Additional observations from a re-analysis of the deposited data

Results flagged for a closer look

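*Mmp19* had an outlying animal in the *Rbpj*+/+ group. Replicate 2 was at 0.33 while the other 3 were at 0.92 to 0.99, and its gap to them made up 0.895 of the range of the group, above the critical value of Dixon's test for 4 samples. This animal's array is one of the pair with brighter dim probes. Of the tested genes, 25 *Rbpj*+/+ groups were examined in this way, and chance alone marks about 1 group in 20. The groups of 3 *Rbpj*-/- animals were not examined.

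Untested probes of *Lox*, *Mmp12* and *Mmp9* were detected in *Rbpj*-/- liver alone. Each was well above background on 2 of the 3 *Rbpj*-/- arrays and on none of the 4 *Rbpj*+/+ arrays. For *Lox* and *Mmp12* these were *Rbpj*-/- replicates 1 and 2, and for *Mmp9* replicates 1 and 3. The values of *Lox* and *Mmp12* overlapped between the genotypes, those of *Mmp9* did not. The array of replicate 1 has brighter dim probes, and its part in these detections was not tested.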

How the results depend on the processing

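Over the 19 alternatives, the number of the tested genes that passed ranged from 4 to 15 (14 in the text), with 4 to 13 higher and 0 to 3 lower, and the number of passing genes of the 8 other lists from 9 to 32 (27 in the text). Without a filter on dim probes, 4 genes passed, 4 higher and 0 lower, with 9 of the other lists, and *Rbpj* kept its difference of −1.13 with an adjusted p of 0.108. With detection on all 7 arrays 9 passed, 7 of them higher, since fewer genes could be tested. Leaving out each animal in turn gave 11 to 14 passing genes, 8 to 12 higher and 2 to 3 lower, 22 to 31 of the other lists, and −1.24 to −1.01 for *Rbpj*. Without both arrays with brighter dim probes 12 genes passed. The share of all tested genes that passed was not counted under any of the alternatives. With normexp background correction, which moved the median of all tested probes by 0.15, *Mmp11* reversed to −0.14, its dimmer probe (A_66_P105075) to −0.036 and *Timp3* to 0.0034, none of which passed there. *Loxl3* ranged from −0.48 to 0.22 as each animal was left out, and was above 0 without *Rbpj*-/- replicate 2 only. The cause of these shifts was not tested. *Mmp23* passed under all 19 alternatives. *Timp1* and *Adamts15* passed under the 18 in which they were tested. Both entered the test only through the *Rbpj*-/- arrays and could not be tested with detection on all 7 arrays. *Loxl1*, *Mmp17* and *Adamts9* failed under 10 or more. No paired analysis was possible because the genotypes share no animal numbers in the labels. Signal over background limits what can be read, as 26 of the 51 genes were too dim to be tested.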
